A study of Mus musculus with 3 samples.

Results

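The contractile genes of myoepithelium described here are 10 mouse genes, chosen by name: Acta2, Actg2, Myh11, Mylk, Cnn1, Tagln, Oxtr, Tpm2, Lmod1 and Smtn. Each was found once among the 22378 gene models listed for 3 RNA sequencing libraries of mammary cells from FVB mice, and all 10 had a usable value in every library. The first library, LCC, came from mammary cells that had been injected into a vein of FVB recipients and sorted from dissociated lungs 1 day later. The donors were FVB.GFP females, or FVB mice whose cells were stained with DDAO, and injected cells were sorted by green fluorescence or by that dye. In each experiment cells of 8 donors went into 4 recipients in 2 injections of 2500000 cells, and LCC pools 455880 cells from 42 lungs of 15 experiments. The second library, E-Int29-Hi, combines 3 samples sorted from mammary cells by an intermediate level of EpCAM and a high level of CD29, a gate said to be enriched for the colonizing cells. The third, MG, combines 3 samples of mammary gland labelled as not dissociated. No transgene other than the fluorescent label, no deletion and no drug is named for any group, and no ages are stated. The stated aim was to describe the LCC profile and the genes that differ between the 3 populations.

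Myoepithelial cells are the basal cells of the mammary epithelium and lie between the milk-producing luminal cells and the basement membrane. They carry the contractile apparatus of smooth muscle, and oxytocin released at suckling makes them contract and push milk into the ducts. In that apparatus myosin pulls on actin filaments once a calcium-dependent kinase has phosphorylated the myosin light chain, while tropomyosin, calponin and related proteins sit along the actin filament. The same genes are also active in the smooth muscle of blood vessels and airways and, in part, in myofibroblasts, so a level in mixed tissue does not name its cell of origin.

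Levels are FPKM, fragments scaled to gene model length and to the number mapped, which allow levels of different genes to be set side by side. There is 1 library per group, so no spread between replicates is known, no test was run, and every value describes these pools only. Differences are log2 ratios of FPKM + 1, which understate the change of genes with low values. A gene counts as higher or lower where it reaches 1 FPKM in either library and differs at least 4-fold on that scale. Read totals are not stated, so depth is unknown. Markers of basal cells matched the E-Int29-Hi gate, with Krt14 at 2380 FPKM and Trp63, a transcription factor of basal epithelium, at 46.0 FPKM. LCC held both luminal and basal keratins (Krt18 at 2368 FPKM and Krt14 at 209.8 FPKM). It also held the 8 lung epithelium genes searched for, at 1.71 to 572 FPKM with a sum of 646 FPKM, against a sum of 2.75 FPKM in E-Int29-Hi and 2.45 FPKM in MG. MG held epithelial, endothelial and fibroblast genes, but the adipocyte genes Adipoq, Plin1, Cidec and Lep lay between 0.575 and 1.67 FPKM there. The part of such other cells in the results below was not tested, except where values are given.

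All 10 contractile genes had the same order of levels: highest in E-Int29-Hi, then MG, and lowest in LCC. Of the 12772 genes that reached 1 FPKM somewhere, 2205 (17.3%) had that order. The 10 values summed to 221 FPKM in LCC, 4424 FPKM in E-Int29-Hi and 405 FPKM in MG, which is 0.0589%, 1.36% and 0.140% of each library's summed FPKM. The range of single genes was 0.0842 to 84.2 FPKM in LCC, 21.3 to 1901 FPKM in E-Int29-Hi and 4.29 to 151 FPKM in MG. In mixed pools a smaller share of myoepithelial cells and less of these RNAs per cell cannot be told apart.

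Between LCC and E-Int29-Hi, all 10 genes were at least 4-fold lower in LCC, with a median log2 change of -4.44 and a range of -6.09 to -2.82. Among the 12147 genes compared, 4.35% were that much lower and 4.64% that much higher, and the median gene changed by 0.26. Between E-Int29-Hi and MG, 9 of the 10 were at least 4-fold higher in E-Int29-Hi and the tenth, Oxtr, lay just under the limit at 1.95. Their median was 3.22, against -0.23 over 12430 genes, of which 2.60% were higher and 3.97% lower by that limit. Between LCC and MG all 10 were lower in LCC by any amount, but 2 of them, Myh11 and Oxtr, reached 4-fold. The median there was -1.06, against 0.01 over 12443 genes, of which 2.63% were lower and 1.33% higher by that limit. At a limit of 2-fold, 5 of the 10 were lower (Oxtr, Myh11, Cnn1, Mylk and Actg2) and 0 higher, beside 12.8% of all genes lower and 10.9% higher. These comparisons share libraries, so they are not independent of each other.

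The background shares depend on the scaling of the libraries and on the pseudocount. Dividing each library by its median ratio turned 564 higher and 528 lower genes in LCC over E-Int29-Hi into 447 higher and 685 lower, and moved the median of all genes to 0.01. Rescaling to an equal sum (TPM), which also raises every value against the fixed pseudocount and filter, gave 157 higher and 919 lower genes for LCC over MG, in place of 166 and 327, with the median of all genes at -0.41. For E-Int29-Hi over MG it gave 375 higher and 1011 lower genes in place of 323 and 494, with a median of -0.45. A pseudocount of 0.1 with no rescaling gave 334 higher and 815 lower genes for LCC over MG and 521 and 1089 for E-Int29-Hi over MG. The contractile genes' medians were -4.71 in LCC over E-Int29-Hi under median ratio scaling, and -1.61 in LCC over MG and 3.08 in E-Int29-Hi over MG under TPM scaling.

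**Figure D1:**
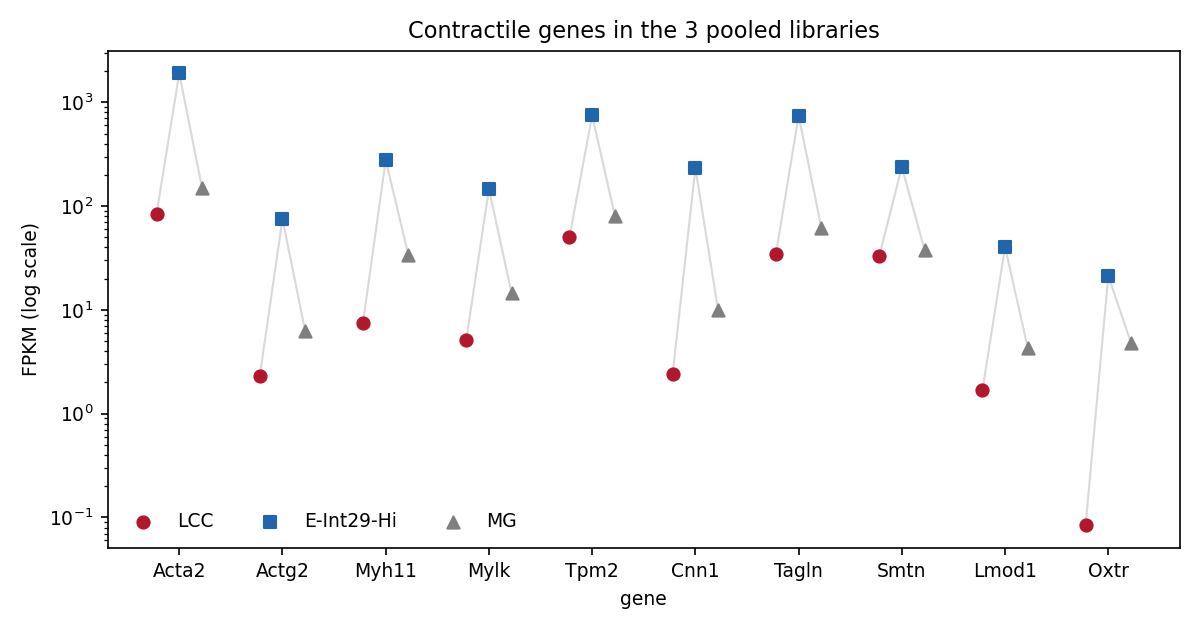
FPKM of each contractile gene (log axis) in LCC (red circles), E-Int29-Hi (blue squares) and MG (grey triangles), 1 pooled library each, so points carry no error bars. Each gene peaks in E-Int29-Hi and is lowest in LCC, and the gap between LCC and MG is widest for Oxtr (0.0842 against 4.79 FPKM) and narrowest for Smtn (32.8 against 37.9 FPKM).

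Since these genes shared 1 order of levels, the DNA just upstream of their starts was read for the binding elements of the factors known to drive smooth muscle genes. RefSeq windows of build GRCm38.p6, a later build than the mm9 named for the deposited values, were at hand for 7 of the 10 genes: Acta2, Mylk, Cnn1, Oxtr, Tpm2, Lmod1 and Smtn. Windows for Actg2, Myh11 and Tagln were not analysed here. The 250 bases before the annotated start are shown, 5′ to 3′ on the gene's own strand, for the 4 genes with a match and for Cnn1, which had none and differed most between LCC and E-Int29-Hi on the log2 scale of FPKM + 1. Capitals mark a CArG box, the element bound by SRF, with at most 1 base of its core other than adenine or thymine. They also mark CATTCC, the core of the element bound by TEAD factors, which on the opposite strand is spelled GGAATG. Both strands were searched, and no marked motifs overlap.
Acta2 (chr19:34255374-34255623, minus strand): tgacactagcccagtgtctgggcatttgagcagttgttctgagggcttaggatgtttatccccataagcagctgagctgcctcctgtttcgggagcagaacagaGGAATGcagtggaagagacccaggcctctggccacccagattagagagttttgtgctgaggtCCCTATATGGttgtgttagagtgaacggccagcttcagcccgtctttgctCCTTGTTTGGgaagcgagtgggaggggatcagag
Mylk (chr16:34784700-34784949, plus strand): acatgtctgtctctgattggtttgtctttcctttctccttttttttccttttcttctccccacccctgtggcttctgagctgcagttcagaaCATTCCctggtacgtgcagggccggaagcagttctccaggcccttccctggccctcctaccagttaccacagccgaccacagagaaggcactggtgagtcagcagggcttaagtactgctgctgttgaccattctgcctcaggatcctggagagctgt
Lmod1 (chr1:135324563-135324812, plus strand): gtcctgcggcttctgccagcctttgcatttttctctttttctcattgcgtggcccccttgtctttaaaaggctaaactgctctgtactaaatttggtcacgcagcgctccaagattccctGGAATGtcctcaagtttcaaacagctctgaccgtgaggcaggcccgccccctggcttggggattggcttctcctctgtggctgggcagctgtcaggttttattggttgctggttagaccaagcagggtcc
Smtn (chr11:3539293-3539542, minus strand): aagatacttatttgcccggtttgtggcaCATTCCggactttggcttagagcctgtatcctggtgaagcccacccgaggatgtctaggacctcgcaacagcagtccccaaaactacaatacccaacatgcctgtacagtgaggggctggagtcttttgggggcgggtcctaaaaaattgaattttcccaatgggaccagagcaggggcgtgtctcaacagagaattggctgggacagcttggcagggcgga
Cnn1 (chr9:22099003-22099252, plus strand): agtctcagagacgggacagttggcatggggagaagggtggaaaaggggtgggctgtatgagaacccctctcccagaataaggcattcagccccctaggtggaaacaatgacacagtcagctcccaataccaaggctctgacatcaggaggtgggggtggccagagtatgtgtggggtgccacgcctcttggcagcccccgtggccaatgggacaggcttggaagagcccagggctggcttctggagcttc

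In these windows Acta2 held a pair of CArG boxes, CCCTATATGG from 84 to 75 bases and CCTTGTTTGG from 34 to 25 bases before its start, each with 1 such base in the core. Such a box was in 1 of the 7 windows and in 8.59% of all 32851 RefSeq windows of the same length, and an exact CArG box was in 0 of the 7 and in 1.47% of all. CATTCC or its complement was in 4 of the 7 windows, those of Acta2, Mylk, Lmod1 and Smtn, and in 12.6% of all. A match describes these letters only, and the absence of one says only that they are not in this stretch.

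Among the filament actins, Acta2, smooth muscle alpha actin, was at 84.2 FPKM in LCC, 1901 FPKM in E-Int29-Hi and 151 FPKM in MG. It was the highest of the 10 genes in each library, and in E-Int29-Hi it ranked 11 of 22077 gene names, against rank 714 in LCC and 254 in MG. Actg2, gamma smooth muscle actin, was far lower, at 2.29, 75.4 and 6.28 FPKM across LCC, E-Int29-Hi and MG. Both were highest in the basal sort. Their log2 changes were close to each other, -4.48 for Acta2 and -4.53 for Actg2 in LCC over E-Int29-Hi, and 3.65 and 3.39 in E-Int29-Hi over MG. Acta2 exceeded Actg2 36.7 times in LCC, 25.2 times in E-Int29-Hi and 24.0 times for MG. Actins have very similar coding sequences, and how the counting split reads among them is not stated.

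Myosin and its kinase followed the same order. Between LCC and MG the gap of Myh11 was wider than those of the actins, and that of Mylk was close to that of Actg2 (-1.14). Myh11, the smooth muscle myosin heavy chain, was at 7.53 FPKM in LCC, 278 FPKM in E-Int29-Hi and 33.6 FPKM in MG. The log2 change of LCC over MG was -2.02, just past the 4-fold limit (-1.62, under it, with a pseudocount of 5), and that of LCC over E-Int29-Hi was -5.03. Mylk, the kinase that phosphorylates the myosin light chain, was at 5.17, 146 and 14.4 FPKM in the same libraries. It was lower in LCC than in MG by less than 4-fold (-1.32). Acta2 exceeded Myh11 11.2 times in LCC, 6.84 times in E-Int29-Hi and 4.48 times for MG, so actin and myosin did not keep a fixed ratio across the libraries.

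Of the proteins on the actin filament, Tpm2, beta tropomyosin, was at 50.2 FPKM in LCC, 747 FPKM in E-Int29-Hi and 80.6 FPKM in MG. Tagln, transgelin, an actin-binding protein long used to mark smooth muscle, was at 34.5, 744 and 62.0 FPKM in the same libraries. Tpm2 and Tagln followed Acta2 in each library and were nearly level with each other in E-Int29-Hi. With no replicates it is not known whether such neighbours differ beyond their spread. Their changes in LCC over MG were small (-0.67 and -0.83). Cnn1, calponin, a brake on the myosin motor, was at 2.44 FPKM in LCC, 233 FPKM in E-Int29-Hi and 9.96 FPKM in MG. It gave the widest log2 changes of the 10 genes in LCC over E-Int29-Hi (-6.09) and in E-Int29-Hi over MG (4.42). With a pseudocount of 0.1, Oxtr was wider than Cnn1 in LCC over E-Int29-Hi (-6.86 and -6.52). Tagln exceeded Cnn1 14.1 times in LCC, 3.19 times in E-Int29-Hi and 6.23 times for MG.

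Smtn, smoothelin, a cytoskeletal protein of smooth muscle, was at 32.8 FPKM in LCC, 238 FPKM in E-Int29-Hi and 37.9 FPKM in MG. LCC and MG were thus nearly level (log2 change -0.20), and the change of LCC over E-Int29-Hi (-2.82) was the smallest of the 10, though with a pseudocount of 5 that of Oxtr was smaller (-2.37, against -2.68 for Smtn). Smtn took 14.9% of the summed FPKM of the 10 genes in LCC, against 5.38% in E-Int29-Hi and 9.37% in MG. Lmod1, leiomodin, which starts new actin filaments, was at 1.67, 40.3 and 4.29 FPKM across LCC, E-Int29-Hi and MG. Its change of -0.99 in LCC over MG lay near the median of the 10 genes (-1.06). That of -3.95 in LCC over E-Int29-Hi was smaller in size than their median (-4.44).

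Oxtr, the oxytocin receptor and the trigger of milk ejection, was at 0.0842 FPKM in LCC, 21.3 FPKM in E-Int29-Hi and 4.79 FPKM in MG. It was the one member under 1 FPKM in any library, and of the 15258 genes above 0 in LCC, 962 had a lower value, so its fold against LCC is poorly bounded. The log2 change of LCC over MG was -2.42, the widest of the 10, while that of E-Int29-Hi over MG was 1.95, the smallest. With a pseudocount of 5 in place of 1 the LCC over MG change was -0.95, under the 4-fold limit. Its relative Avpr1a, a vasopressin receptor, differed in order, at 1.37 FPKM in LCC, 1.96 FPKM in E-Int29-Hi and 9.88 FPKM in MG.

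**Figure D2:**
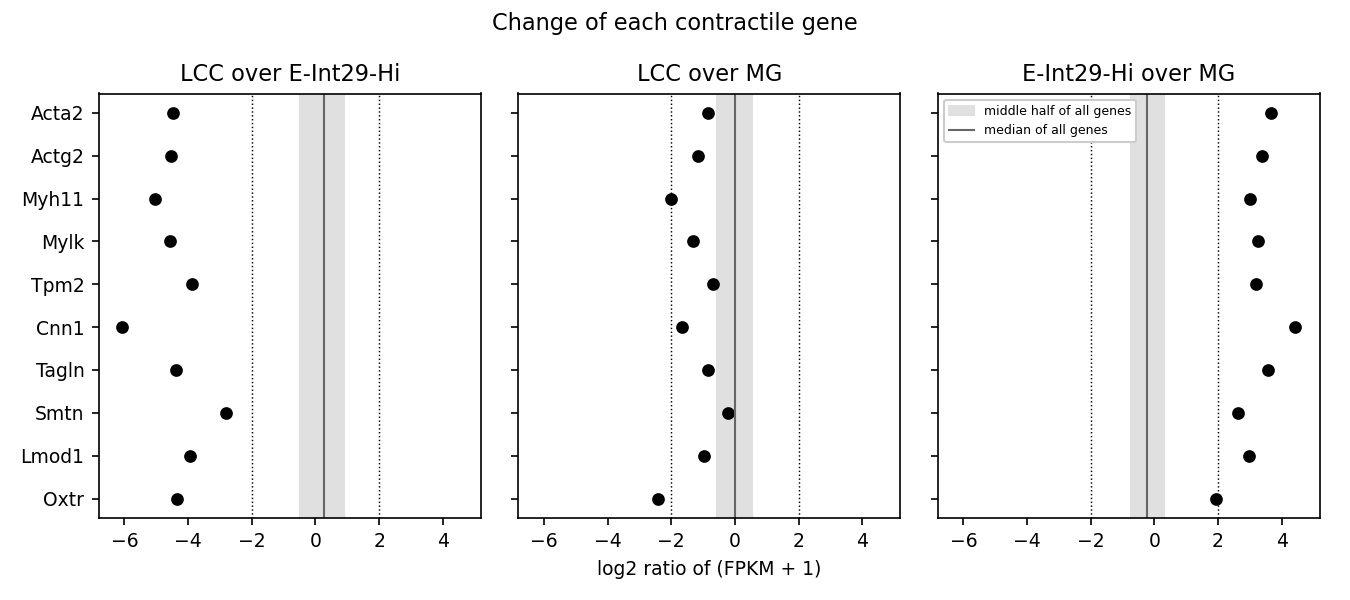
Log2 ratio of FPKM + 1 for each contractile gene in the 3 comparisons, with the median (line) and the range from lower to upper quartile (grey band) of all genes compared and dotted lines at the 4-fold limit. The genes lie between -6.09 and -2.82 in LCC over E-Int29-Hi, between -2.42 and -0.20 in LCC over MG and between 1.95 and 4.42 in E-Int29-Hi over MG.

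Basal cell genes outside the contractile apparatus were split in LCC against MG. Of 13 such genes, 9 were at least 4-fold lower in LCC than in E-Int29-Hi and 0 higher (median -2.54). Over all genes 4.35% were lower and 4.64% higher. In E-Int29-Hi over MG 8 were higher and 0 lower (median 2.74), beside 2.60% of all genes higher and 3.97% lower. In LCC over MG, 7 of the 13 were higher by any amount and 6 lower, with a median of 0.46, and Lamb3, a laminin chain, alone passed 4-fold, upward. Of all genes 1.33% were at least 4-fold higher and 2.63% lower there. Under TPM scaling the basal median was 0.09, and 0 were at least 4-fold higher and 1 lower. Of all 14421 genes then compared, 157 were higher and 919 lower. With 13 genes, counts of 0 or 1 in LCC over MG are near those shares. The basal keratin Krt14 was at 209.8 FPKM in LCC, 2380 FPKM in E-Int29-Hi and 104 FPKM in MG. Krt17 was at 251, 2029 and 82.5 FPKM, and Krt5 at 92.3, 426 and 60.7 FPKM, so all 3 keratins were higher in LCC than in MG. The order of the contractile genes was shared by 6 of the 13, Itga6, Trp63, Dst, Sox10, Cdh3 and Col17a1, with Itga6, an integrin subunit, at 26.8, 351 and 93.0 FPKM. Other genes of this list called lower in LCC than in E-Int29-Hi were Cdh3 (-4.20), Sox10 (-3.76), Trp63 (-2.66), Dst (-2.54) and Col17a1 (-2.52).

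Set against the 3 basal keratins, the contractile genes were scarcest in LCC, but this did not hold against every basal gene. The 10 genes summed to 0.3996 FPKM for each FPKM of Krt5, Krt14 and Krt17 together in LCC, against 0.915 in E-Int29-Hi and 1.64 for MG. For Acta2 alone the ratio to Krt14 was 0.401 in LCC, against 0.799 in E-Int29-Hi and 1.45 for MG. The ratio to Krt14 was lower in LCC than in MG for all 10 genes and lower in LCC than in E-Int29-Hi for 9. Smtn was the exception, with 0.1563 in LCC against 0.09999 in E-Int29-Hi. For Cnn1 the ratio was 0.0116 in LCC, and E-Int29-Hi (0.0979) and MG (0.0958) were nearly level. These ratios do not depend on the scaling of the libraries, but numerator and denominator can come from different cells in LCC and MG. All 3 keratins were higher in LCC than in MG, as given above. With each of the 13 basal genes as denominator in turn, the sum of the 10 was lower in LCC than in MG for 10 and higher for 3. The 3 were Itga6 (8.23 in LCC and 4.35 for MG), Trp63 (34.5 and 28.2) and Dst (10.1 and 6.61).

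Relatives of these genes seldom reached 4-fold, though some differed by more than 2-fold, as Tagln2 did in LCC over MG (1.65) and Tpm1 in E-Int29-Hi over MG (1.58). Actb, cytoplasmic beta actin, was at 1199 FPKM in LCC, 763 FPKM in E-Int29-Hi and 792 FPKM in MG. Tagln2 was at 576, 326 and 183 FPKM in the same libraries, and Actg1 at 1087, 999 and 658 FPKM. Tpm1, which smooth muscle also uses, was at 203, 538 and 179 FPKM. Of 28 relatives listed, 24 had a usable value and 13 reached 1 FPKM in LCC or E-Int29-Hi. Of these 0 were at least 4-fold lower in LCC and 0 higher (median 0.21), beside 4.35% and 4.64% of all genes. In LCC over MG, 1 of 15 was lower, Avpr1a, and 0 higher (median 0.18), beside 2.63% and 1.33% of all genes. In E-Int29-Hi over MG 0 of 14 were called (median 0.39), beside 2.60% of all genes higher and 3.97% lower. Within 2-fold were 9 of the 13, 9 of the 15 and 9 of the 14. With so few genes, counts of 0 or 1 are near those shares. Actg1 changed sign in LCC over E-Int29-Hi under median ratio and TPM scaling, as did Tpm3 and Tpm4 under median ratio scaling. In LCC over MG, Myh9 and Tpm1 changed sign under TPM scaling, and in E-Int29-Hi over MG so did Actb under median ratio and Tpm3 under TPM scaling.

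**Figure D3:**
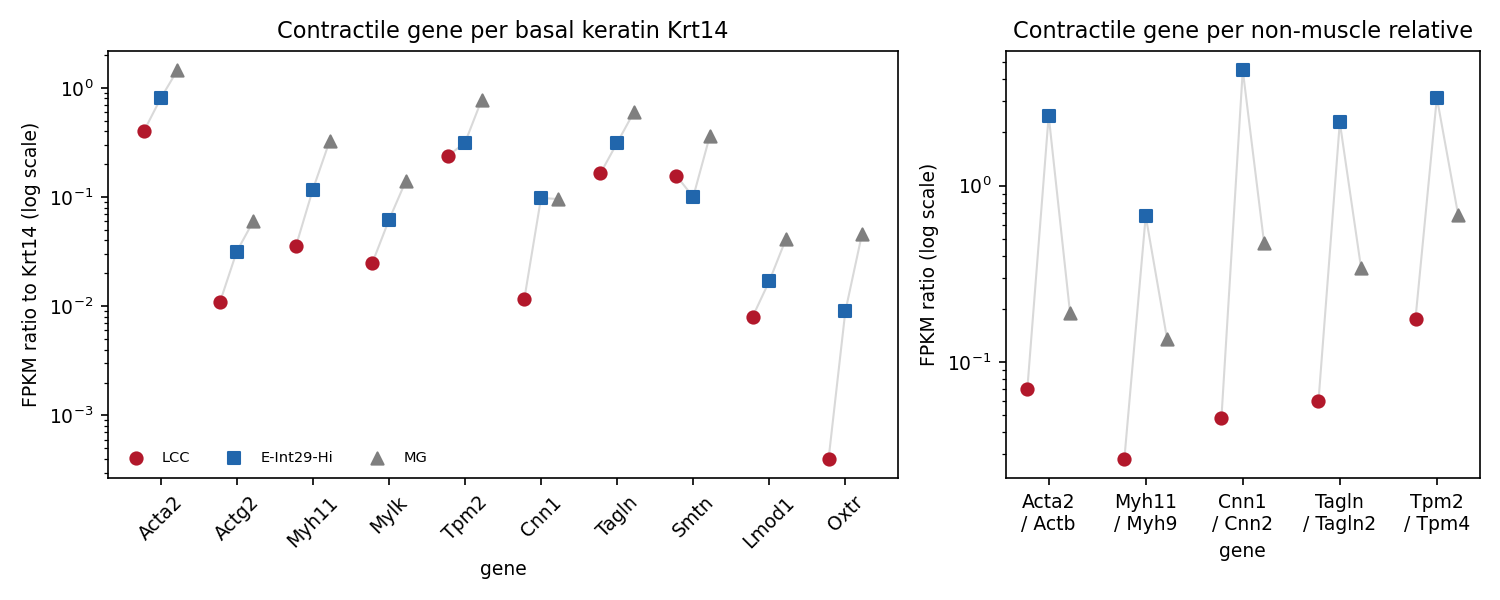
Left, FPKM of each contractile gene divided by that of the basal keratin Krt14. Right, FPKM of 5 contractile genes divided by that of a widely expressed relative, both on log axes, with 1 pooled library per symbol as marked. Acta2 for each Krt14 was 0.401 in LCC, against 0.799 in E-Int29-Hi and 1.45 for MG, and Acta2 for each Actb was 0.0702, 2.49 and 0.190.

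Ratios of a contractile gene to its relative were lowest in LCC in each of 5 pairs, which were picked with their values known. Acta2 for each FPKM of Actb was 0.0702 in LCC, against 2.49 in E-Int29-Hi and 0.190 for MG. Myh11 for each FPKM of Myh9, the main non-muscle myosin heavy chain, was 0.0283, 0.672 and 0.135 in the same order. The smooth muscle form was thus the more abundant actin of the pair in E-Int29-Hi, while non-muscle myosin led in each library. Calponin switched in the same way as actin, with Cnn1 for each Cnn2 at 0.0480 in LCC, against 4.51 in E-Int29-Hi and 0.472 for MG. Tagln for each Tagln2 was 0.0599, 2.28 and 0.339, and Tpm2 for each Tpm4 was 0.176, 3.15 and 0.680.

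Other genes of the contractile apparatus were split. Of 22 such partners, 7 were at least 4-fold lower in LCC than in E-Int29-Hi and 0 higher, with a median of -1.56. Over all genes 4.35% were lower and 4.64% higher. Under TPM scaling 11 partners were lower and 0 higher, beside 942 lower and 705 higher of all 13812 genes compared. Among the 7 without that scaling were Myl9 (-5.78), Pdlim3 (-4.96), Synm (-3.02), Mrvi1 (-2.81), Csrp1 (-2.43) and Kcnmb1 (-2.25). Myl9, the regulatory light chain of smooth muscle myosin, was at 4.90 FPKM in LCC, 323 FPKM in E-Int29-Hi and 34.4 FPKM in MG. In E-Int29-Hi over MG 7 of 22 were higher and 0 lower (median 1.68), beside 2.60% of all genes higher and 3.97% lower. In LCC over MG 2 of 21 were lower, Myl9 (-2.59) among them, and 0 higher, with a median of -0.01. Of all genes 2.63% were lower and 1.33% higher there. Under TPM scaling 4 partners were lower and 0 higher, with a median of -0.43. Of all 14421 genes then compared, 919 were lower and 157 higher. Cytoskeletal genes of the list with broad expression did not reach 4-fold in LCC over E-Int29-Hi, with Flna, filamin A, at 308, 457 and 113 FPKM and Actn1, alpha actinin, at 288, 379 and 142 FPKM. Des, desmin, the intermediate filament protein of muscle, singled out after its values were seen, was low throughout, at 6.78 FPKM in LCC, 2.56 FPKM in E-Int29-Hi and 4.01 FPKM in MG.

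Genes that link the oxytocin receptor to contraction differed less than those partners, with counts near the shares over all genes. Of 22, 1 was at least 4-fold lower in LCC than in E-Int29-Hi and 0 higher (median -0.41). Over all genes 4.35% were lower and 4.64% higher. In LCC over MG 0 of 22 were called (median -0.10), beside 2.63% of all genes lower and 1.33% higher. The one was Stim1, the calcium sensor of the endoplasmic reticulum, at 6.87 FPKM in LCC, 41.1 FPKM in E-Int29-Hi and 11.98 FPKM in MG. In E-Int29-Hi over MG, Rgs2, a brake on the G protein of the receptor, was higher (2.33), Trpc6, a calcium channel, was lower (-2.38) and the median was 0.02. Of all genes 2.60% were higher and 3.97% lower there. The small GTPase gene Rhoa was at 175 FPKM in LCC, 56.2 FPKM in E-Int29-Hi and 80.1 FPKM in MG, and the calmodulin gene Calm2 at 128, 202 and 114 FPKM.

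Medians of the factors that control smooth muscle genes lay closer to those of all genes than the contractile genes' medians did. Of 18 listed, 17 had a usable value and 16 passed 1 FPKM. In LCC over E-Int29-Hi 1 of these was lower and 2 were higher, with a median of -0.48. Over all genes 4.35% were lower and 4.64% higher. Of the 16, 9 differed by less than 2-fold, so the list was not level. Tead3, a TEAD factor, was at 4.65 FPKM in LCC, 37.1 FPKM in E-Int29-Hi and 8.12 FPKM in MG, which is the order of the contractile genes. Tead4 was lowest in E-Int29-Hi, at 8.55, 1.12 and 13.3 FPKM, and so was Prrx1, a mesenchymal homeobox gene, at 84.2, 3.21 and 25.3 FPKM. Srf and its cofactors, singled out after their values were seen, differed by less than 4-fold. Srf was at 22.2 FPKM in LCC, 35.2 FPKM in E-Int29-Hi and 24.8 FPKM in MG, and Mkl1, a myocardin-related cofactor, at 17.5, 40.1 and 13.0 FPKM. Myocd, myocardin itself, was under 1 FPKM in each library (0.326, 0.280 and 0.558 FPKM). In LCC over MG 0 of 16 were called (median -0.18), beside 2.63% of all genes lower and 1.33% higher. In E-Int29-Hi over MG 1 was higher and 2 lower (median -0.32), beside 2.60% of all genes higher and 3.97% lower.

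**Figure D4:**
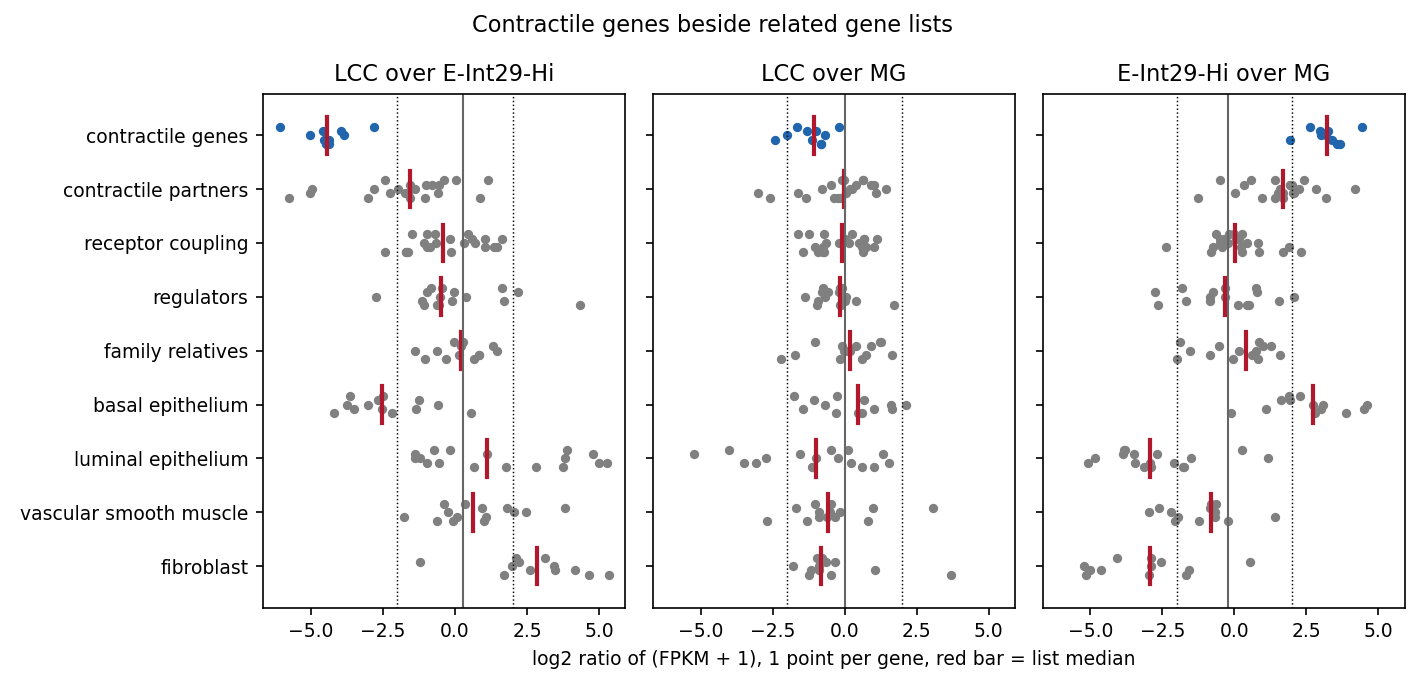
Log2 ratio of FPKM + 1 for each gene (point) of the contractile genes (blue) and related lists (grey), for genes that reached 1 FPKM in at least 1 of the pair. Red bars are list medians, the grey line is the median of all genes and dotted lines mark the 4-fold limit. In LCC over MG the contractile genes have a median of -1.06, the basal list 0.46 and the partners -0.01.

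Other cells that use contractile genes were followed by their own markers. Of 16 vascular smooth muscle and pericyte genes, 14 passed 1 FPKM in LCC or E-Int29-Hi, with a median of 0.63. Of these, 3 were at least 4-fold higher in LCC (Cspg4, Pdgfrb and Ednra) and 0 lower. Over all genes 4.64% were that much higher and 4.35% lower. Against MG the median was -0.56 in LCC, with Cspg4 higher and Rgs5 lower, and -0.82 in E-Int29-Hi, with 4 lower and 0 higher. Shares over all genes were 1.33% higher and 2.63% lower in LCC over MG. They were 2.60% and 3.97% in E-Int29-Hi over MG. With 14 genes, 1 higher and 1 lower in LCC over MG is near those shares. The list summed to 137 FPKM in LCC, 119 FPKM in E-Int29-Hi and 216 FPKM in MG. Rgs5, a pericyte gene, was at 6.49, 10.6 and 47.8 FPKM, Pdgfrb at 25.5, 3.84 and 36.9 FPKM, and Mcam, a cell adhesion gene, at 21.1, 74.5 and 27.3 FPKM. No gene of the list was at 0 in any library, and 4, 4 and 2 of them were under 1 FPKM across LCC, E-Int29-Hi and MG. The part of vessel cells in the LCC and MG values was not tested.

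Fibroblast genes were low in E-Int29-Hi and high in both other libraries. The 12 of them summed to 2170.0 FPKM in LCC, 810.3 FPKM in E-Int29-Hi and 3647 FPKM in MG. Of the 12, 9 were higher in LCC than in E-Int29-Hi and 0 lower (median 2.86), while in LCC over MG 1, Tnc, was higher and 0 lower (median -0.83). In E-Int29-Hi over MG 9 were lower and 0 higher (median -2.93). Postn, periostin, at 282 FPKM in LCC, 652 FPKM in E-Int29-Hi and 446 FPKM in MG, made up most of the list's sum in E-Int29-Hi. Of 17 luminal genes, 7 were higher in LCC than in E-Int29-Hi and 0 lower (median 1.11), and 5 were lower in LCC than in MG (median -0.997). Of these 17, 12 were lower in E-Int29-Hi than MG (median -2.93). Shares over all genes were 4.64% higher and 4.35% lower in LCC over E-Int29-Hi. In LCC over MG they were 1.33% and 2.63%, and in E-Int29-Hi over MG 2.60% and 3.97%. The single fibroblast gene called in LCC over MG is near those shares. Leukocyte genes summed to 323 FPKM in LCC, 88.0 FPKM in E-Int29-Hi and 67.2 FPKM in MG, and endothelial genes to 119.8, 141 and 630 FPKM. The gate's own genes, Epcam and Itgb1 (CD29), were within 4-fold in each comparison (log2 changes from 0.22 to 1.01). Both were highest in LCC and lowest in MG. Epcam was at 325 FPKM in LCC, 279 FPKM in E-Int29-Hi and 209 FPKM in MG, and Itgb1 at 401, 296 and 198 FPKM. Under median ratio scaling Epcam changed sign in LCC over E-Int29-Hi.

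Nearest in pattern to the contractile genes, by distance over the 3 libraries from their median changes (-4.44 in LCC over E-Int29-Hi and 3.22 in E-Int29-Hi over MG), were Spock2, Bmp7, Ctgf, Sorcs1, Igfbp2, Adamts18, Kank4 and Col4a6, of 6352 genes at 10 FPKM or more in some library. Their distances on the log2 scale ran from 0.16 to 0.40, where the contractile genes themselves lay at 0.14 (Mylk) to 2.04 (Cnn1). Ctgf, a secreted matrix-associated protein, was at 48.97 FPKM in LCC, 1234 FPKM in E-Int29-Hi and 122 FPKM in MG. Col4a6, a basement membrane collagen chain, was at 2.10, 50.7 and 5.08 FPKM in the same libraries. Bmp7, Sorcs1, Adamts18 and Kank4 were under 1 FPKM in LCC, at 0.568, 0.166, 0.137 and 0.231 FPKM. Their changes against LCC, and so their distances, depend strongly on the pseudocount. In all, 254 of 11805 genes (2.15%) were at least 4-fold higher in E-Int29-Hi than in LCC and also than in MG, 9 of the 10 contractile genes among them. With 3 libraries such likeness rests on few points.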

How the data were processed

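Messenger RNA of 3 pooled samples was isolated by poly-T capture with a TruSeq kit and sequenced on a HiSeq platform, per the labels. What the authors deposited is, for each library, a list of genes with a status word and an FPKM level, which 78 genes lack. The submitters' processing notes name TopHat 1.4.1, Cufflinks 1.3.0 and mm9, with no role. Strand use and annotation release are not given in the sources used here.

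Of 22378 genes, 22188 carried the status OK in each library and were kept. Where several models shared a name the one with the highest summed FPKM was kept, which left 22077 names. Differences are log2 ratios of FPKM + 1 for genes that reached 1 FPKM in at least 1 of the pair, called at 4-fold. With 1 library per group there was no test. The FPKM sum was 375295 for LCC, 325939 for E-Int29-Hi and 288156 for MG, with 6819, 4952 and 3163 genes listed at 0.

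The genes and lists were chosen with earlier results of these data known, and the adipocyte list was added last. Named are the 10 contractile genes, Epcam and Itgb1, up to 4 members of each other list with the highest FPKM, members called in a described comparison, and the 8 genes nearest in pattern at 10 FPKM or more, leaving out unnamed, small RNA and pseudogene models. Genes outside this rule are those whose choice is stated. Alternatives were pseudocounts of 0.1 and 5, no filter or one at 5 FPKM, median ratio and TPM scaling, summed models, every status and a 2-fold limit. The steps were tested on simulated data. Python 3.11.15, numpy 2.4.6, pandas 2.3.3 and matplotlib 3.10.9 were used. Upstream windows came from RefSeq, build GRCm38.p6, and no mm9 coordinates are given. The values of 1 gene of a list are not reported here.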

Additional observations from a re-analysis of the deposited data

How the results depend on the processing

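No contractile gene changed direction in any comparison under the 8 alternatives that recomputed its log2 change, and 233 of 238 such values stayed on the same side of the 4-fold limit. Many of these values could not move. Each gene had 1 model, with status OK, so summing models or keeping every status left its value as it was. A changed filter could only keep or drop a value. Only the pseudocounts and the scalings could alter a log2 change. The count of 10 of 10 lower in LCC than in E-Int29-Hi was the same under each alternative, and that of E-Int29-Hi over MG was 9 or 10, with Oxtr at 2.13 under a pseudocount of 0.1 and under median ratio scaling. The count lower in LCC than in MG, 2 by the rule used, was 0 with a pseudocount of 5, 1 with a filter at 5 FPKM and 5 with a 2-fold limit. It was 3 under TPM scaling, where Cnn1 also passed (-2.25 in place of -1.67). The construction shows why. A larger pseudocount shrinks low values, the filter removed Oxtr and Lmod1 and a lower limit admits more genes. TPM scaling divides by the FPKM sum, which was larger for LCC than for MG, and raises values against the fixed pseudocount. Medians ranged from -4.81 to -3.83 for LCC over E-Int29-Hi, from -1.61 to -0.78 for LCC over MG and from 2.92 to 3.42 for E-Int29-Hi over MG. No replicate could be left out, and no paired analysis was possible because each group has 1 library. Depth is unknown, which bears most on Oxtr in LCC.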

Other observations

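The 10 skeletal muscle genes with a value summed to 1.81 FPKM in LCC, 1.38 FPKM in E-Int29-Hi and 15.3 FPKM in MG, where Tnnt3, a troponin subunit, was highest at 4.24 FPKM. In LCC, Myh4, Ckm, Tnnc2, Myl1 and Pvalb were listed at 0.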
